A study of Rattus norvegicus with 38 samples.

Results

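Buccal swabs from rat pups were examined at 4 differentially methylated regions (DMRs) assigned to genes of glycan-modifying enzymes, Hs6st1, Sulf2, B4galt4 and Man1c1. The members were every DMR whose position the study's published gene lists gave to 1 of these 4 genes, which found 1 DMR per gene, or 4 of the 3417 DMRs in the deposited matrix. Each of the 4 DMRs was a single CpG. The gene lists named a gene for 458 of the 3417 DMRs. All 4 genes stood on the study's list of DMRs with high weights on the age component of control pups. Hs6st1 and Sulf2 stood also on its list for the component that set LBN apart from control pups. Their values in those contrasts are therefore given as a description.

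The animals were 19 Sprague Dawley rat pups, and each was swabbed on postnatal day 2 (P2) and on P10, for 38 samples in all. Litters were pooled after the P2 swab, and chance decided which dam, and so which cage condition, a pup received. Control pups (n = 10) then stayed in standard cages, and LBN pups (n = 9) spent the days between the swabs with limited bedding and nesting material, a cage condition that makes maternal care fragmented and unpredictable. There were 6 controls and 5 LBN pups in cohort 1, and 4 of each in cohort 2. The labels gave no sex, litter or dam per pup, and pups of 1 dam would not be independent. A swab holds surface epithelial cells and leukocytes together. In such a mixture, a change in the share of a cell type and a change in methylation within a cell cannot be told apart. The methylation level is the percentage of reads at a CpG that were methylated, from reduced representation bisulfite sequencing. The deposited matrix gave levels and no read numbers, so the depth behind a single level is unknown.

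Glycans are the sugar chains that cells build onto proteins and lipids, and enzymes working in order set their branching, length and charge. Heparan sulfate is the sulfated chain of proteoglycans such as the syndecans. Its pattern of sulfate groups sets which growth factors, chemokines and morphogens it binds. Hs6st1 encodes a sulfotransferase that adds sulfate to the 6-O position of glucosamine in heparan sulfate. Sulf2 encodes an extracellular endosulfatase that removes 6-O-sulfate from finished chains, so that both act on the same group from opposite sides. B4galt4 encodes a beta-1,4-galactosyltransferase that extends glycan chains with galactose. Man1c1 encodes a Golgi alpha-mannosidase that trims mannose from N-glycans before complex branches are made.

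The 4 CpGs lay on separate chromosomes of the rat assembly rn6. The Hs6st1 CpG was intronic, at chr9:42625161-42625162. The Sulf2 CpG was intergenic, at chr3:162887757-162887758, and was given to Sulf2 as its nearest gene. The B4galt4 CpG was intronic, at chr11:64577981-64577982. The Man1c1 CpG was intronic, at chr5:152857797-152857798. None of them lay in a promoter by the study's annotation. All 152 values at these CpGs were above 0.

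The Hs6st1 and Sulf2 CpGs, whose genes encode enzymes that write and erase 6-O-sulfate, had lower methylation at P10 in most pups of both cohorts. B4galt4 and Man1c1 had lower levels at P10 in cohort 2, whereas in cohort 1 most pups had higher levels at P10.

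At Hs6st1, the level averaged 31.1% ± 8.31 (SD, n = 19) at P2 and 20.8% ± 9.50 at P10, and 15 of 19 pups had the lower level at P10. Cohort 1 controls ranged at P2 from 28.8% to 44.6% with a median of 31.5%, and at P10 from 8.21% to 30.7% with a median of 21.96%. Cohort 2 controls went from 23.3% to 21.2%, from 23.6% to 6.90%, from 34.5% to 1.29% and from 27.8% to 18.6%. The level of 1.29% in pup C5 of cohort 2 was the lowest of all 152 member values. Cohort 1 LBN pups went from 24.4% to 26.6%, from 23.7% to 33.8%, from 48.1% to 31.6%, from 46.6% to 29.7% and from 35.1% to 34.5%. Cohort 2 LBN pups went from 16.0% to 18.5%, from 32.6% to 25.1%, from 29.2% to 12.8% and from 27.0% to 11.2%. The controls had the lower level at P10 in 9 of 10 pups and the LBN pups in 6 of 9. The P2 and P10 ranges overlapped in both groups.

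At Sulf2, the level averaged 45.2% ± 13.6 (SD, n = 19) at P2 and 26.2% ± 13.6 at P10, and 17 of 19 pups had the lower level at P10. The mean change of -19.0 percentage points was among the most negative of the matrix, with 172 of 3417 DMRs (5.03%) below it. Cohort 1 controls ranged at P2 from 45.5% to 66.7% with a median of 49.7%, and at P10 from 15.1% to 51.0% with a median of 25.8%. Cohort 2 controls went from 41.9% to 22.1%, from 41.8% to 2.67%, from 38.3% to 8.93% and from 27.3% to 17.9%. All 10 controls had the lower level at P10. Cohort 1 LBN pups went from 76.9% to 30.8%, from 43.8% to 39.8%, from 60.8% to 45.1%, from 50% to 25% and from 44.4% to 52.5%. Cohort 2 LBN pups went from 22.7% to 17.5%, from 32.2% to 35.1%, from 33.9% to 21.0% and from 30.2% to 13.5%. The LBN pups had the lower level at P10 in 7 of 9, and the exceptions were LBN12 of cohort 1 and LBN2 of cohort 2.

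The P2 level of Sulf2 also separated the cohorts before the cage conditions began. All 11 pups of cohort 1 were between 43.8% and 76.9%, and all 8 pups of cohort 2 were between 22.7% and 41.9%. Such a separation at P2, with every cohort 2 pup below every cohort 1 pup, held for 10 of 3417 DMRs (0.293%). At P10, where 194 DMRs (5.68%) were separated in this way, the cohort ranges of all 4 members overlapped.

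At B4galt4, the level averaged 45.9% ± 11.8 (SD, n = 19) at P2 and 37.9% ± 16.9 at P10, and 12 of 19 pups had the lower level at P10. Cohort 1 controls ranged at P2 from 23.1% to 61.9% with a median of 48.2%, and at P10 from 20% to 55.8% with a median of 44.2%. Cohort 1 LBN pups went from 20.3% to 59.5%, from 36.5% to 52.7%, from 55.2% to 53.0%, from 41.7% to 67.7% and from 48.8% to 50.5%. In cohort 1, then, 4 of 5 LBN pups and 3 of 6 controls had the higher level at P10. Cohort 2 controls went from 40.4% to 36.0%, from 55.9% to 23.2%, from 52.1% to 16.7% and from 45.2% to 18.8%. Cohort 2 LBN pups went from 46.3% to 19.4%, from 57.7% to 39.7%, from 57.1% to 24.0% and from 31.7% to 13.6%. All 8 pups of cohort 2 had the lower level at P10, with changes of -35.4 to -4.34 percentage points in controls and -33.2 to -18.0 in LBN pups.

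At Man1c1, the level averaged 39.1% ± 14.1 (SD, n = 19) at P2 and 40.7% ± 22.1 at P10, and 10 of 19 pups had the lower level at P10. Cohort 1 controls ranged at P2 from 25.9% to 57.6% with a median of 38.9%, and at P10 from 32.8% to 60.2% with a median of 48.2%. Cohort 1 LBN pups went from 23.0% to 71.2%, from 19.5% to 58.7%, from 66.3% to 59.3%, from 55.2% to 79.4% and from 54.8% to 67.8%. In cohort 1, 4 of 5 LBN pups and 4 of 6 controls had the higher level at P10. Cohort 2 controls went from 15.0% to 38.8%, from 29.8% to 17.7%, from 38.8% to 6.72% and from 36.4% to 21.0%. Cohort 2 LBN pups went from 48.1% to 15.2%, from 47.2% to 28.0%, from 37.3% to 12.6% and from 34.0% to 16.5%. Control C11 was the only pup of cohort 2 with the higher level at P10.

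**Figure D1:**
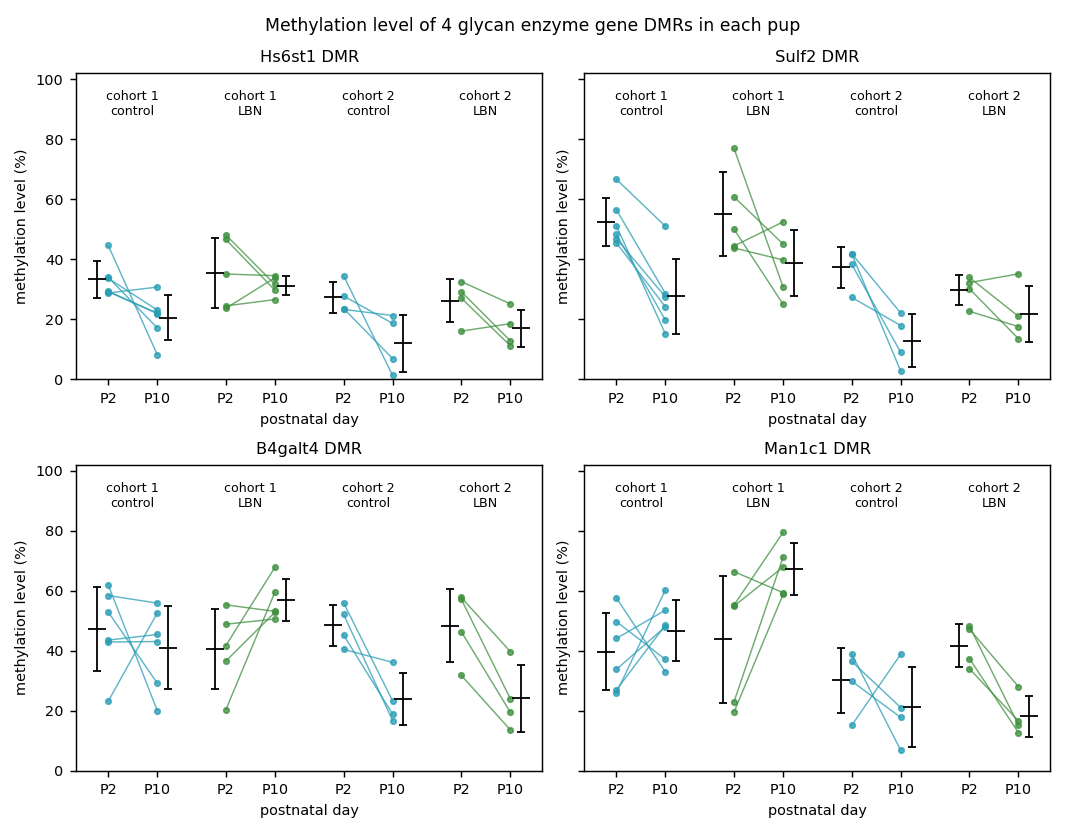
Methylation level (%, vertical axis) of each of the 4 DMRs at P2 and P10, with 1 line per pup for control (blue) and LBN (green) pups of each cohort, and black bars for the group mean and SD. Lines of Sulf2 slope down in 17 of 19 pups, while those of B4galt4 and Man1c1 slope down in 8 and 7 of the 8 cohort 2 pups and in 4 and 3 of the 11 cohort 1 pups.

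The age comparison asked how the level of each CpG changed within a pup. It was fitted with limma, a linear model with spread shared across all DMRs, on the log2 odds of methylation with each pup as a block. Over all pups 1493 of 3417 DMRs (43.7%) passed an adjusted p of 0.05, 1026 of them (30.0%) with lower levels at P10. Of the 4 members, 2 passed. The log2 odds changed by -0.93 ± 0.27 (SE) at Hs6st1 and by -1.37 ± 0.25 at Sulf2. They changed by -0.53 ± 0.31 at B4galt4 and by 0.00 ± 0.35 at Man1c1, which did not pass. These members were listed for their age weights in the controls, so the values describe the choice. Within cohort 1 alone 1 of the 4 members passed, Sulf2, against 25.8% of all DMRs. Within cohort 2 alone all 4 passed, with estimates from -1.60 to -1.25, against 27.6% of all DMRs.

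In LBN pups alone, which the age list did not use, 182 of 3417 DMRs (5.33%) passed and none of the 4 members did. DMRs had first been found in single pups of either group, so these pups are not wholly independent of the choice. The change was -0.85 ± 0.34 (SE) at Sulf2 (limma adjusted p = 0.125), -0.48 ± 0.30 at Hs6st1 (limma adjusted p = 0.316), -0.16 ± 0.44 at B4galt4 (limma adjusted p = 0.871) and 0.07 ± 0.52 at Man1c1 (limma adjusted p = 0.946). At B4galt4 and Man1c1 the estimates of the 2 cohorts had opposite signs. In cohort 1 LBN pups alone, where 16.5% of DMRs passed, Man1c1 rose by 1.48 ± 0.46 (limma adjusted p = 0.0387), and B4galt4 had an estimate of 0.98 ± 0.43 (limma adjusted p = 0.0985). In cohort 2 LBN pups alone, where 16.6% of DMRs passed, Man1c1 fell by 1.69 ± 0.34 (limma adjusted p = 0.0168) and B4galt4 fell by 1.59 ± 0.32 (limma adjusted p = 0.0182).

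These within-cohort calls rested on few pups. With each LBN pup of cohort 1 left out in turn, the estimate at Man1c1 stayed between 1.11 and 1.96 and passed in 1 of 5 fits, the one without LBN4. With each LBN pup of cohort 2 left out, Man1c1 stayed between -1.87 and -1.49 and B4galt4 between -1.78 and -1.44, each past the threshold in 1 of 4 fits, the one without LBN11. Adjusted p in limma ran over these fits from 0.00625 to 0.165 at Man1c1 in cohort 1, from 0.0393 to 0.0543 at Man1c1 in cohort 2 and from 0.0386 to 0.0661 at B4galt4 in cohort 2. At P10 every LBN pup of cohort 2 was below every LBN pup of cohort 1 at both CpGs. Their levels were 13.6% to 39.7% against 50.5% to 67.7% at B4galt4 and 12.6% to 28.0% against 58.7% to 79.4% at Man1c1. That pattern held for 1271 of 3417 DMRs (37.2%), so it was common in the matrix.

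The difference between cohorts was tested on δ methylation, which is log2 of the P10 level over the P2 level of the same pup. Cohort 2 minus cohort 1 was -1.23 ± 0.32 (SE) at B4galt4 (limma adjusted p = 0.0271) and -1.47 ± 0.42 at Man1c1 (limma adjusted p = 0.0432). Estimates were -0.46 ± 0.37 at Sulf2 (limma adjusted p = 0.529) and -0.78 ± 0.48 at Hs6st1 (limma adjusted p = 0.370). Of the 3354 DMRs without a level of 0, 208 (6.20%) passed, 201 of them (5.99%) lower in cohort 2. In cohort 2 the median δ methylation over all DMRs was below 0 in 8 of 8 pups, with a mean of -0.18 ± 0.08 (SD), whereas in cohort 1 it averaged 0.00 ± 0.07 and was below 0 in 4 of 11. Centred on the median of each pup, the estimates were -1.05 ± 0.30 at B4galt4 (limma adjusted p = 0.0715) and -1.29 ± 0.41 at Man1c1 (limma adjusted p = 0.0979), and neither passed. On the log odds scale neither passed, with limma adjusted p of 0.05005 at B4galt4 and 0.0516 at Man1c1. With each pup left out in turn, B4galt4 stayed between -1.41 and -1.10 and passed in 14 of 19 fits, failing without C5, C8, LBN11, LBN4 or LBN9 of cohort 2. Man1c1 stayed between -1.84 and -1.23 and passed in 5 of 19, those without C6, C9 or LBN4 of cohort 1 or without C11 or C1 of cohort 2.

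In percentage points, the mean change of B4galt4 was 4.03 ± 23.5 (SD, n = 11) in cohort 1 and -24.4 ± 10.4 (n = 8) in cohort 2. At Man1c1 it was 14.5 ± 22.5 and -16.3 ± 17.9. The gap between cohorts was -28.4 points at B4galt4 and -30.8 at Man1c1, against a median of -4.75 over all DMRs. Only 67 of 3417 DMRs (1.96%) had a lower gap than B4galt4 and 46 (1.35%) a lower one than Man1c1. Sulf2 and Hs6st1 had gaps of 4.89 and -3.36 points. By the study's methods the cohorts were run on other dates and were otherwise alike, so cohort and date cannot be told apart.

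**Figure D2:**
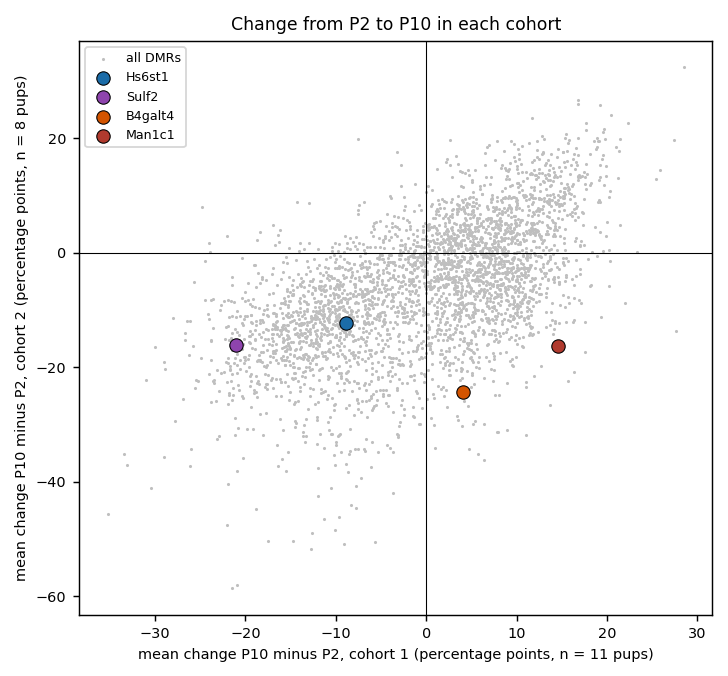
Mean change in methylation from P2 to P10 (percentage points) in the 11 pups of cohort 1 (horizontal axis) and the 8 pups of cohort 2 (vertical axis), with 1 grey point per DMR and the 4 members in colour. Man1c1 and B4galt4 lie in the lower right, above 0 in cohort 1 and below 0 in cohort 2, and Hs6st1 and Sulf2 lie below 0 in both.

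Pups with a higher δ methylation at B4galt4 had a higher one at Man1c1 by Pearson's r. In cohort 2 the rank correlation did not pass. Both CpGs stood on the same side of the study's age list of control pups, who are among the pups here. Their relation therefore partly describes that choice. Pearson's r was 0.89 in cohort 1 (n = 11, permutation p = 0.00038, adjusted over 12 relations 0.00456) and 0.88 in cohort 2 (n = 8, exact permutation p = 0.00809, adjusted 0.0323). Spearman's rho was 0.94 in cohort 1 (permutation p = 0.00008, adjusted 0.00096) and 0.48 in cohort 2 (exact permutation p = 0.243, adjusted 0.417). Without the 2 pups farthest from the median of the first measure, r was 0.78 and 0.81. In cohort 2 this kept control C5, the lowest pup at both CpGs, with δ of -1.64 at B4galt4 and -2.53 at Man1c1. Over all pairs of DMRs, the median r was 0.01 in cohort 1 and 0.02 in cohort 2, and 25.5% and 23.3% of pairs had r above 0.5. The share of pairs with r as high as that of B4galt4 and Man1c1 was not counted. In cohort 1 the δ of B4galt4 and of Man1c1 also rose with the median δ over all DMRs of the pup. There r was 0.80 at B4galt4 (n = 11, permutation p = 0.00212, adjusted over 8 relations 0.0170) and 0.75 at Man1c1 (n = 11, permutation p = 0.00832, adjusted 0.0333). Spearman's rho was 0.82 (permutation p = 0.0029, adjusted 0.0232) and 0.74 (permutation p = 0.0122, adjusted 0.0487), and r was 0.60 and 0.54 without the 2 farthest pups. In cohort 2 r with the median δ was 0.21 at B4galt4 and 0.09 at Man1c1 (n = 8, exact permutation p = 0.608 and 0.855).

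Hs6st1 and Man1c1 had r of 0.77 in cohort 1 (n = 11, permutation p = 0.0032, adjusted 0.0192), with rho of 0.71 (permutation p = 0.0182, adjusted 0.109) and r of 0.55 without the 2 farthest pups. In cohort 2 this r was 0.59 (n = 8, exact permutation p = 0.0880, adjusted 0.176). Hs6st1 and Sulf2, the pair that acts on the same sulfate group, had r of 0.31 in cohort 1 (n = 11, permutation p = 0.343, adjusted 0.457) and 0.55 in cohort 2 (n = 8, exact permutation p = 0.256, adjusted 0.437). Their rho was 0.28 (permutation p = 0.404) and 0.79 (exact permutation p = 0.0279, adjusted 0.112). No relation of Sulf2 with another member passed after adjustment. Hs6st1 and Sulf2 stood on the same side of the age list as B4galt4 and Man1c1, so these relations too partly describe that choice.

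**Figure D3:**
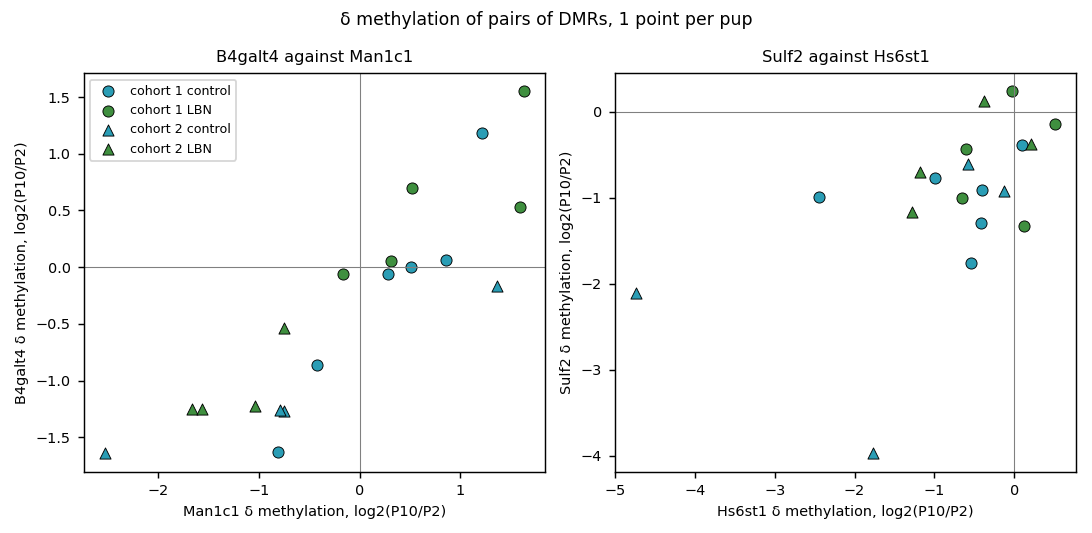
δ methylation, log2(P10/P2), of B4galt4 against Man1c1 (left) and of Sulf2 against Hs6st1 (right), with 1 point per pup, circles for cohort 1, triangles for cohort 2, blue for control and green for LBN. In the left panel r is 0.89 in cohort 1 and 0.88 in cohort 2, and Spearman's rho is 0.94 and 0.48. In the right panel control C5 of cohort 2 lies far to the left and control C1 of cohort 2 far below the other pups.

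The comparison of LBN with control pups asked whether the cage condition left a mark on these CpGs. At P2, before the conditions began, estimates in log2 odds were 0.02 at Hs6st1, -0.10 at Sulf2, -0.24 ± 0.33 (SE) at B4galt4 and 0.44 ± 0.38 at Man1c1. No DMR passed in the limma fit at P2 (0 of 3417, or 0.0%, with 457, or 13.4%, at an unadjusted p under 0.05). In cohort 2 alone, however, 479 of 3417 DMRs (14.0%) differed at P2, and no member was among them. The member estimates there ran from -0.48 at Sulf2 to 0.78 at Man1c1 (limma adjusted p from 0.192 to 0.979). At P10 estimates were positive at all 4 members, while 1515 of 3417 DMRs (44.3%) had a negative one. B4galt4 was 0.55 ± 0.33 higher in LBN pups (95% interval -0.13 to 1.23, limma adjusted p = 0.501) and Man1c1 0.67 ± 0.35 higher (95% interval -0.05 to 1.40, limma adjusted p = 0.482). Neither passed, and 0 of 3417 DMRs (0.0%) did in limma, with 337 (9.86%) at an unadjusted p under 0.05. The estimates at P10 were 0.90 ± 0.37 at Hs6st1 and 0.90 ± 0.37 at Sulf2. Both are given as a description, because these genes were listed for the LBN component of δ methylation, which includes the P10 level.

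Whether the P10 difference between LBN and control pups itself differed between cohorts was not tested, and the values of each cohort are given side by side. In cohort 1 alone, where 409 of 3417 DMRs (12.0%) passed, Man1c1 was 1.25 ± 0.37 higher in LBN than control pups (limma adjusted p = 0.0409). Its mean levels there were 67.3% ± 8.64 in LBN (SD, n = 5) and 46.7% ± 10.2 in control pups (n = 6), and the ranges overlapped between 58.7% and 60.2%. In cohort 2 alone the estimate was -0.11 ± 0.58, with 18.1% ± 6.79 in LBN and 21.1% ± 13.3 in control pups (SD, n = 4 each), and 0 of 3417 DMRs passed. B4galt4 had 56.7% ± 7.01 and 41.0% ± 13.8 in cohort 1 (limma adjusted p = 0.0923), and 24.2% ± 11.2 and 23.7% ± 8.68 in cohort 2.

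In δ methylation, LBN minus control was 0.45 ± 0.32 (SE) at B4galt4 (95% interval -0.21 to 1.11) and 0.05 ± 0.42 at Man1c1 (95% interval -0.82 to 0.92). Neither passed, and 0 of 3354 DMRs (0.0%) did in limma, with 109 (3.25%) at an unadjusted p under 0.05. As a description, LBN pups had the smaller drop by 0.86 at both Hs6st1 and Sulf2. At Sulf2 δ averaged -1.37 ± 1.05 in controls (SD, n = 10) and -0.53 ± 0.56 in LBN pups (n = 9), and at Hs6st1 -1.19 ± 1.47 and -0.36 ± 0.62. These values moved with single controls of cohort 2. Without C5, which had 1.29% at Hs6st1 at P10, the Hs6st1 value was 0.47, and without C1, which had 2.67% at Sulf2, the Sulf2 value was 0.56. Whether the LBN difference in δ itself differed between cohorts was tested as an interaction. No member passed, with limma adjusted p from 0.396 at Man1c1 to 0.764 at Hs6st1, and 1 of 3354 DMRs (0.0298%) did.

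**Figure D4:**
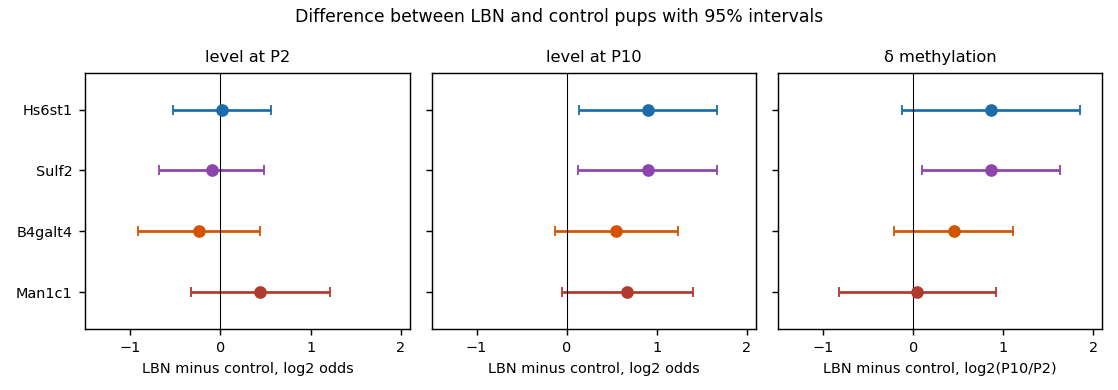
LBN minus control estimates (points) with 95% intervals (lines) for the level at P2, the level at P10 (log2 odds) and δ methylation (log2 ratio), over 19 pups with cohort as a term. At P10 the 4 points lie between 0.55 and 0.90, and no member passed the adjusted threshold in any panel.

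Neighbouring DMRs did not always follow the members. Hs6st1 and B4galt4 had no other DMR within 100 kb. A DMR 0.532 kb from the Sulf2 CpG, at chr3:162887208-162887225, changed by 0.52 points in cohort 1 and by -28.8 in cohort 2, while the Sulf2 CpG changed by -21.1 and -16.2. Man1c1 had 3 DMRs within 100 kb. The nearest, 12.1 kb away, changed by -1.05 points in cohort 1 and -24.5 in cohort 2. The others lay at 84.9 kb and, near Selenon, at 92.3 kb. The first changed by 9.89 points in cohort 1 and -3.26 in cohort 2, opposite signs as at Man1c1, and the second by -22.2 and -13.0.

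The other glycan enzyme genes had few DMRs with a gene name. Of 42 further genes of glycosyltransferases, sulfotransferases, mannosidases and related enzymes, 6 had a DMR. A DMR had a gene name only where the study's age or LBN list held it, so these values partly describe that choice. Xylt2 stood on the age list of control pups, among the DMRs less methylated at P10. Over all pups 4 of the 6 passed the age test, with Hs2st1, the heparan sulfate 2-O-sulfotransferase, higher at P10 and Xylt2, Ugcg and Stt3b lower, against 43.7% of all DMRs. Xylt2, which starts the linker on which heparan sulfate is built, went from 34.9% ± 11.1 to 17.7% ± 11.3 (SD, n = 19) and was lower in 18 of 19 pups. It was the 1 DMR of the 6 that passed in LBN pups alone, with -1.44 ± 0.37 (SE, limma adjusted p = 0.0397), against 5.33% of all DMRs. None of the 5 that could be tested passed for cohort in δ, and their median was 0.13, against -0.16 over all DMRs. Of 8 proteoglycan genes 3 had a DMR, 4 in all. Among these the DMR of Sdc1, a syndecan that carries heparan sulfate, differed in δ by -1.78 between cohort 2 and cohort 1 (limma adjusted p = 0.0111). None of these other DMRs passed for LBN against control at P10 or in δ.

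DMRs at genes of the cell types that a swab can hold were compared in the same way. Of 6 DMRs at epithelial genes 2 passed for cohort in δ, at Aqp3 and Krt42, both lower in cohort 2, against 6.20% of all DMRs. All 6 estimates were negative, with a median of -0.76, against a median of -0.16 and 70.7% negative over all DMRs. The mean level changed by -2.62 points in cohort 1 controls, 2.35 in cohort 1 LBN, -7.09 in cohort 2 controls and -12.1 in cohort 2 LBN pups. At P10 that level was 25.1% to 44.1% in cohort 1 controls and 38.8% to 47.3% in cohort 1 LBN pups. It was 14.3% to 22.8% in cohort 2 controls and 14.1% to 23.1% in cohort 2 LBN pups. The mean level of a pup over all DMRs also separated the cohorts at P10. That mean was 48.8% to 55.1% in cohort 1 and 39.4% to 46.0% in cohort 2. The cohort separation at P10 is therefore not read as particular to epithelial genes. Krt42, Dsc3, Itga6 and Aqp3 also stood on the same side of the study's age list as the 4 members. The cohort estimates at epithelial genes may partly describe that choice, and nothing is read from them. Of the 8 DMRs at leukocyte genes 0 passed for cohort in limma, with a median of -0.08 and 4 of 8 negative. Their mean level changed by -10.9 points in cohort 1 controls, -4.82 in cohort 1 LBN, -15.8 in cohort 2 controls and -0.62 in cohort 2 LBN pups. At P2 that level was already 37.1% to 47.3% in cohort 2 controls and 28.5% to 33.2% in cohort 2 LBN pups, while in cohort 1 the ranges overlapped. In cohort 2 alone 479 of 3417 DMRs (14.0%) differed at P2 in limma. How many DMRs had groups without overlap there was not counted, so the gap is not read as particular to leukocyte genes. LBN minus control in δ had a median of 0.47 over the leukocyte DMRs, against -0.02 over all DMRs, and 0 of 8 passed in limma. Runx1, Cxcr4, Cd83, Lsp1, Jaml and Cxcr1 stood on the positive side of the study's LBN list, as did Hs6st1 and Sulf2. The sign of this median and the P2 gap in cohort 2 therefore partly describe that choice, and nothing is read from them. The part of cell composition in the results at the 4 members was not tested.

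Among the DMRs with a gene name, the 2 with the most similar δ over the 19 pups, after removing the cohort means, were taken for each member. They were introns of Mark2 (r = 0.90) and Ccdc85c (r = 0.86) for Hs6st1, and introns of Tnfrsf1b (r = 0.74) and Dusp7 (r = 0.69) for Sulf2. For B4galt4 they were the transcription end of Gm8797 (r = 0.82) and an intron of Kdm2b (r = 0.82), and for Man1c1 an intron of Dsc3, a desmosomal cadherin of epithelia (r = 0.94), and 1 of AABR07026989.1 (r = 0.93). Over all 3353 other DMRs the median r ran from -0.09 with Sulf2 to 0.10 with B4galt4. Many of them were more like B4galt4 than the named DMRs, with 54 above Gm8797 and 62 above Kdm2b. For Sulf2 these numbers were 4 and 12, for Man1c1 1 and 6, and for Hs6st1 0 and 1. A DMR had a gene name only through the study's lists. Mark2, Tnfrsf1b and Dusp7 stood on the positive side of its LBN list, as did Hs6st1 and Sulf2. Dsc3 stood on the same side of its age list as Man1c1. The r values are also the highest among the named DMRs, so they partly describe these choices, and nothing is read from them.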

How the data were processed

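Reduced representation bisulfite sequencing libraries were made from buccal swabs of 19 pups at 2 ages. Per the study's methods, the authors trimmed reads with Trim Galore 0.4.3, aligned them to rn6 with Bismark 0.16.3, kept CpGs covered by more than 10 reads, and took CpGs whose P2 and P10 values in the same pup differed with methylKit at FDR 0.05. CpGs shared by at least 2 pups of a group and lying within 100 bp were joined to DMRs. The authors deposited methylation percent (0 to 100) for 3417 DMRs in 38 samples, before their cohort correction. Reads per CpG were not used here, so no counting interval was given.

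DMRs had been called for the age change, so counts of age calls describe a selected matrix. Genes came from the study's lists, whose weights were not used. Members and gene lists were chosen with earlier results of these data known. Groups followed the labels, and P2 and P10 were paired by pup. Levels were tested as log2((percent + 1)/(100 - percent + 1)) and δ methylation as log2(P10/P2) over the 3354 DMRs without a 0, with limma 3.58.1 in R 4.3.3. Age used pup as a block, and other fits used cohort as a term. P-values were adjusted by Benjamini-Hochberg over all DMRs at 0.05, and treated pups as independent. Relations between DMRs were tested by exact permutation (n = 8) or 100000 permutations (n = 11), two-sided. The DMRs most like each member were the 2 with a gene name and the highest r. Alternatives were other scales, pseudocounts and filters, each cohort alone, other blocks and each pup left out. Centring δ on the median of each pup, and leaving pups out within a cohort, were chosen after seeing the data.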

Additional observations from a re-analysis of the deposited data

Results flagged for a closer look

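The δ methylation differed between cohorts, by a test of the difference itself, at B4galt4 (cohort 2 minus cohort 1, -1.23 on the log2 scale, limma adjusted p = 0.0271) and at Man1c1 (-1.47, limma adjusted p = 0.0432). At B4galt4 8 of 8 pups of cohort 2 and 4 of 11 of cohort 1 had the lower level at P10, and at Man1c1 7 of 8 and 3 of 11 did. Of all 3354 DMRs tested, 6.20% passed. Neither call was kept on the log odds scale or after centring on the median of each pup, and with each pup left out in turn B4galt4 passed in 14 of 19 fits and Man1c1 in 5 of 19. The cause was not tested.

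A sample stood far from the others of its group in 2 of the 48 groups of values examined, and chance alone flags about 1 in 20 groups. At Hs6st1 control C6 of cohort 1 had a P2 level of 44.6%, against 28.8% to 34.0% in the other 5 controls of that cohort. At B4galt4 pup LBN2 of cohort 2 had a δ methylation of -0.54, against -1.25 to -1.23 in the other 3 LBN pups of that cohort.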

How the results depend on the processing

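In the age change over all pups, 2 of the 4 members passed, but 1 in cohort 1 alone and 4 in cohort 2 alone. Estimates reversed at B4galt4 (0.24 in cohort 1) and Man1c1 (-1.25 in cohort 2, and -0.10 on the log2(percent + 1) scale). In LBN pups 0 members passed, but 1 in cohort 1 and 2 in cohort 2. B4galt4 reversed to 0.98 in cohort 1, and Man1c1 to -1.69 in cohort 2 and -0.11 on the log2(percent + 1) scale. For LBN against control at P10 0 passed, but 1 in cohort 1, and cohort 2 gave -0.11 at Man1c1 and -0.00058 at B4galt4. At P2 Hs6st1 reversed to -0.10 in cohort 2 and -0.0063 on the log2(percent + 1) scale, and Sulf2 to 0.18 in cohort 1. In δ, LBN against control at Man1c1 was -0.58 in cohort 2 and -0.018 with no cohort term. Of the 2 cohort calls in δ, 0 remained as a log odds difference, 1 in percentage points and 0 after centring. In points the cohort difference at Sulf2 was 4.36, and the interaction at Hs6st1 -2.44. The cause was not tested.

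With each pup left out, the cohort calls in δ numbered 0 to 2. For both cohorts together, the counts for age, LBN against control and the interaction did not change. In LBN pups of 1 cohort they did, with Man1c1 past the threshold in 1 of 5 fits in cohort 1 and 1 of 4 in cohort 2, and B4galt4 in 1 of 5 and 1 of 4. Signs changed among these fits for estimates near 0, namely age at Man1c1 (-0.16 to 0.17), age in LBN pups at B4galt4 (-0.49 to 0.072) and Man1c1 (-0.29 to 0.37), LBN at P2 at Hs6st1 (-0.090 to 0.14), LBN in δ at Man1c1 (-0.15 to 0.35) and the interaction at Hs6st1 (-0.49 to 1.05).

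Some control and LBN pups shared numbers within a cohort, and the labels do not say what a number stands for. With group means removed, δ of same-numbered pairs correlated at a mean r of -0.02 (n = 5 pairs, -0.69 to 0.37). Other pairs had a mean of 0.00 (-0.67 to 0.75). So few pairs with so wide a spread cannot show whether a shared number is more than a name. With the number as a replicate block, LBN minus control reversed to 0.15 at P2 and -0.037 in δ at B4galt4 and to -0.54 in δ at Man1c1, and 0 members passed. Under this block Hs6st1 went from 0.86 to 0.26 and Sulf2 from 0.86 to 0.52 in δ, and at P10 they went from 0.90 to 0.51 and from 0.90 to 0.45. Without the pup as a block, 2 members passed the age change and 0 in LBN pups. Read numbers per CpG are unknown, so the share of the spread between pups that is counting error is unknown too.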
